A study of Bos taurus with 34 samples.

Results

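Transcript abundance of 5 receptors carried by neutrophils and of NCF1, a cytosolic subunit of their NADPH oxidase, was examined in peripheral white blood cells (PWBC) of 17 heifers. The receptors were CSF3R (ENSBTAG00000013334), CXCR2 (ENSBTAG00000038042), TREM1 (ENSBTAG00000017593), JAML (ENSBTAG00000023283) and NFAM1 (ENSBTAG00000005018), and the identifier of NCF1 was ENSBTAG00000003305. These 6 of the 27570 genes counted were chosen by their measured CPM, the read pairs of a gene when a library is scaled to 1000000, in the groups of heifers, so the differences between groups given for them are a description and were not tested. All 6 were among the 10942 genes that reached 2 CPM or more in at least 5 libraries. The sequences of these genes and their positions on the assembly that the authors used, ARS-UCD1.2, were not analysed here.

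The animals were Angus-Simmental crossbred heifers, about 14 months old, and every one was synchronized and inseminated at a fixed time. Blood was drawn on the day of insemination, before the outcome was known. Of these heifers, 6 conceived to artificial insemination (AI-preg), 6 conceived later to bulls (NB-preg) and 5 did not conceive (non-pregnant). Each heifer gave 1 library, and the heifers are therefore biological replicates. White cells were obtained as a buffy coat with lysis of red cells after about 4 h on ice and were not sorted, so a library mixes all the leukocytes that this layer held. In such a mixture, more cells of a type and more RNA per cell cannot be told apart. The total of read pairs counted on genes was 15353819 to 67192941 in AI-preg, 6402207 to 56867279 in NB-preg and 4184999 to 20164587 in non-pregnant libraries.

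Neutrophils are short-lived phagocytes that leave the bone marrow for the blood and enter tissues along chemokine gradients. CSF3R binds granulocyte colony-stimulating factor, the cytokine that drives their production and survival. CXCR2 binds CXC chemokines such as interleukin 8 and directs release from the marrow and migration. TREM1 amplifies inflammatory signals through the adaptor TYROBP, while NFAM1 carries an immunoreceptor tyrosine-based activation motif (ITAM) of its own. JAML is an adhesion molecule that helps leukocytes cross epithelia. NCF1, also called p47phox, moves to the membrane on activation and switches on the oxidase that makes superoxide. Monocytes and some lymphocytes also express several of these genes, among them TREM1, JAML, NFAM1 and NCF1, so only CSF3R and CXCR2 come close to marking neutrophils in blood.

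Non-pregnant heifers 94, 107 and 113 had the highest abundance of CSF3R, TREM1, JAML, NFAM1 and NCF1 among all heifers. For CXCR2 their ranks were 4, 3 and 1. Over all genes, these heifers held the 3 highest values for 6.68%. The other non-pregnant heifers, 101 and 115, lay inside the range of the pregnant heifers for all 6 genes, and no gene of the 6 had non-overlapping groups. Groups that did not overlap were found for 0.411% of all genes between non-pregnant and AI-preg heifers and for 0.439% between non-pregnant and NB-preg heifers. These 3 heifers also had the highest scores on the first principal component of all other genes, which held 45.4% of the variance. Their scores were 103, 81.0 and 115, and heifer 108 came next with 69.6. The other end of this component held non-pregnant heifer 115 at -136 and AI-preg heifer 119 at -117.

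**Figure D1:**
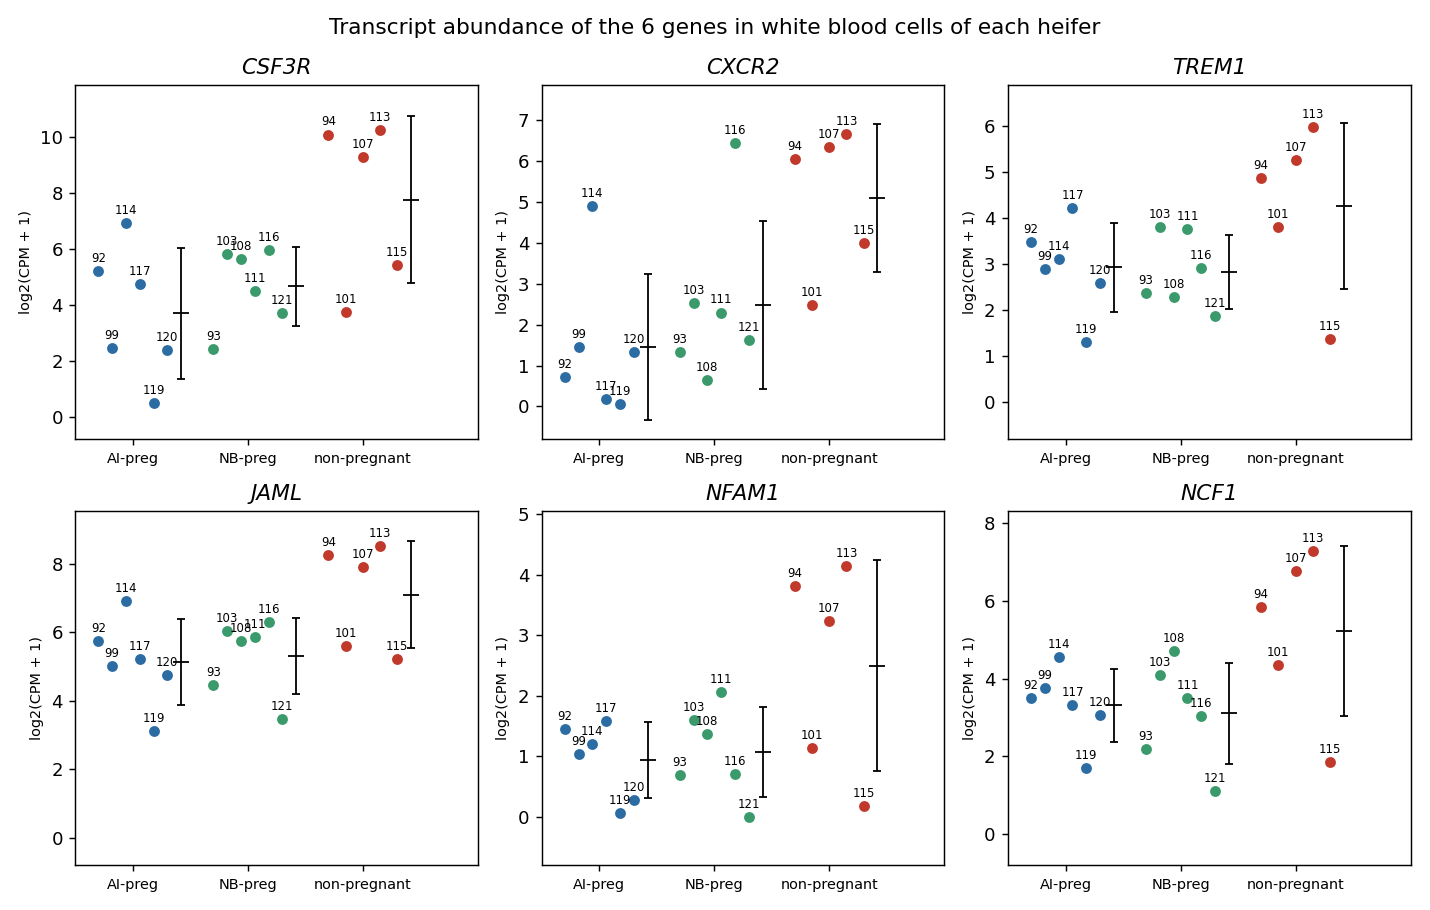
Transcript abundance of the 6 genes as log2(CPM + 1), with a panel for each gene and a point for each heifer, labelled by its number. Bars give the mean ± SD of each group of 5 or 6 heifers; heifers 94, 107 and 113 sit above all others except for CXCR2, where NB-preg heifer 116 reaches their level.

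CSF3R had the widest difference. Its abundance in AI-preg heifers 92, 99, 114, 117, 119 and 120 was 36.5, 4.51, 123, 25.9, 0.402 and 4.20 CPM. In NB-preg heifers 93, 103, 108, 111, 116 and 121 it was 4.35, 55.1, 48.8, 21.6, 61.1 and 12.1 CPM. In non-pregnant heifers 94, 101, 107, 113 and 115 it was 1101, 12.5, 636, 1241 and 42.3 CPM. The lowest of heifers 94, 107 and 113 was thus 5.19 times the highest of the other 14, AI-preg heifer 114, whereas heifer 101 had rank 12 of 17. The fitted log2 fold change was 4.23 ± 1.19 (SE) between non-pregnant and AI-preg heifers and 4.17 ± 1.18 between non-pregnant and NB-preg heifers. These fold changes share the non-pregnant libraries. AI-preg heifer 119 was at the other extreme, with 10 read pairs.

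CXCR2 was high in the same 3 non-pregnant heifers and also in heifer 116. AI-preg heifers 92, 99, 114, 117, 119 and 120 had 0.657, 1.76, 29.0, 0.138, 0.0402 and 1.54 CPM of CXCR2. NB-preg heifers 93, 103, 108, 111, 116 and 121 had 1.53, 4.75, 0.557, 3.92, 85.9 and 2.07 CPM. Non-pregnant heifers 94, 101, 107, 113 and 115 had 65.1, 4.56, 80.3, 100 and 14.9 CPM. AI-preg heifer 114 and NB-preg heifer 116 stood far above the rest of their groups, and heifer 115, low for TREM1, NFAM1 and NCF1, had rank 6. The log2 fold change between non-pregnant and AI-preg heifers was 3.27 ± 1.42 (SE), and it was 5.98 without heifer 114. Between non-pregnant and NB-preg heifers it was 1.70 ± 1.36, and 4.37 without heifer 116. The difference between NB-preg and AI-preg heifers, 1.57 ± 1.31 on the log2 scale, turned to -1.10 without heifer 116 and grew to 4.28 without heifer 114. For lowly counted libraries the value rests on few reads, down to 1 read pair in heifer 119. In the RefSeq annotation of assembly ARS-UCD2.0 the next gene to CXCR2 is its paralog CXCR1. Reads that align to more than 1 place were removed by the authors, so sequence shared by the paralogs is not counted for either.

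The receptors that act through ITAM signalling, TREM1 and NFAM1, are described together. TREM1 ranged from 1.49 to 17.5 CPM in AI-preg heifers (median 6.97) and from 2.67 to 12.9 CPM in NB-preg heifers (median 5.35). In non-pregnant heifers 94, 101, 107, 113 and 115 it was 28.0, 12.9, 37.4, 62.2 and 1.6 CPM. Heifer 115 was therefore next to the lowest of all 17. The log2 fold change of TREM1 was 1.83 ± 0.73 (SE) against AI-preg and 2.0 ± 0.74 against NB-preg heifers. NFAM1 was at 0.0402 to 2.0 CPM in AI-preg and 0 to 3.20 CPM in NB-preg heifers. NB-preg heifer 121 had no read pair, which allows up to 0.200 CPM when 3 counts are taken as the limit. Non-pregnant heifers 94, 101, 107, 113 and 115 had 13, 1.2, 8.46, 16.6 and 0.123 CPM of NFAM1. Even the 3 high heifers rested on 69 to 334 read pairs. The log2 fold change of NFAM1 was 2.90 ± 1.14 against AI-preg and 2.55 ± 1.13 against NB-preg heifers.

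JAML was detected at 7.60 CPM or more in every heifer. It was 7.60 to 119 CPM in AI-preg heifers (median 33.8) and 10.1 to 78.3 CPM in NB-preg heifers (median 55.1). Non-pregnant heifers 94, 101, 107, 113 and 115 had 308, 47.5, 242, 369 and 36.0 CPM. As for CSF3R, the next highest heifers after 94, 107 and 113 were 114 and 116. The log2 fold change of JAML was 2.14 ± 0.68 (SE) against AI-preg and 2.08 ± 0.68 against NB-preg heifers.

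NCF1 was measured at 10.2, 12.5, 22.4, 9.04, 2.25 and 7.27 CPM in AI-preg heifers 92, 99, 114, 117, 119 and 120. NB-preg heifers 93, 103, 108, 111, 116 and 121 had 3.51, 16, 25, 10.4, 7.19 and 1.13 CPM. In non-pregnant heifers 94, 101, 107, 113 and 115 it was 55.9, 19.4, 108, 155 and 2.58 CPM. The 3 high heifers lay 2.24 times or more above the highest of the others, heifer 108. Heifer 115, in contrast, was among the 3 lowest. The log2 fold change of NCF1 was 2.69 ± 0.83 (SE) against AI-preg and 2.70 ± 0.83 against NB-preg heifers. For the 5 genes other than CXCR2, log2 fold changes between NB-preg and AI-preg heifers were from -0.17 to 0.35. Their standard errors were from 0.64 to 1.05, so larger differences are not excluded. That of CSF3R was 0.06, and 1.24 without heifer 114.

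The size of these differences rested on heifers 94, 107 and 113. Without them, and with only heifers 101 and 115 left in the non-pregnant group, the log2 fold changes against AI-preg heifers were between -0.75 (NFAM1) and 0.83 (CXCR2). Against NB-preg heifers they were between -1.10 (NFAM1) and 0.06 (NCF1). Each of these 12 values was smaller than its SE, which ranged from 0.82 to 2.01. Leaving out any 1 heifer at a time kept the non-pregnant group higher for all 6 genes in both comparisons. Libraries 94, 107 and 113 were left out after their values had been seen.

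**Figure D2:**
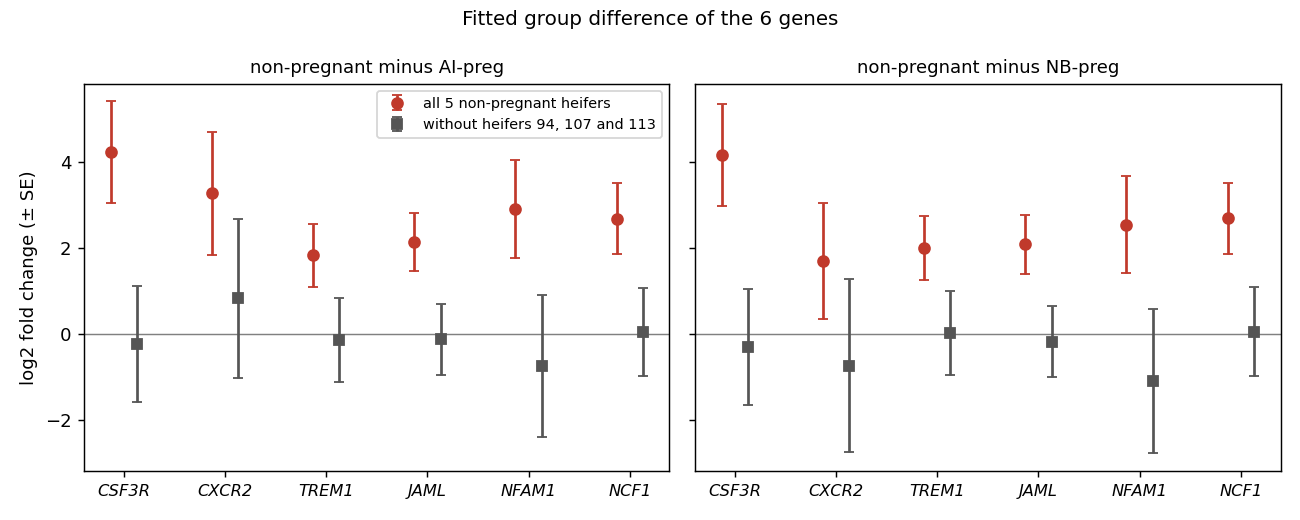
Fitted log2 fold change ± SE (edgeR) of the 6 genes between non-pregnant and AI-preg heifers (left) and between non-pregnant and NB-preg heifers (right). Circles use all 5 non-pregnant heifers and lie between 1.70 and 4.23; squares leave out heifers 94, 107 and 113 and lie between -1.10 and 0.83.

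Across all genes, the groups were compared with the quasi-likelihood test of edgeR and with the first step of the rule that the authors used, a nominal p of 0.03 or less in both the likelihood ratio test of edgeR and DESeq2. At an adjusted p of 0.05, edgeR called 0% of genes in each of the 3 comparisons. The unadjusted p was under 0.05 for 585 genes between non-pregnant and AI-preg heifers, 672 between non-pregnant and NB-preg heifers and 16 between NB-preg and AI-preg heifers. DESeq2 called 5, 11 and 0 genes at an adjusted p of 0.05. By the nominal rule, 322 genes were higher in non-pregnant than AI-preg heifers, or 2.94% of all genes. Against NB-preg heifers there were 248, or 2.27%. Of the 6 genes, 6 and 5 were past this rule, CXCR2 being the exception against NB-preg heifers. Since the same values chose the genes, nothing is read from that count. Without heifers 94, 107 and 113, none of the 6 was past the rule in either comparison, and 46 and 22 genes were.

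Other genes of neutrophils were taken from lists of genes with a symbol in the supplementary tables, which paired only 21 of the 124 symbols first listed with an identifier. The lists were therefore extended to 28 genes by symbols that the tables held. Of these 28, 14 were reported as different by the study in contrasts that used heifers of this series, and are not independent evidence of direction. The study's contrast over both years also held heifers of the year before. None of the genes named from these lists passed an adjusted p of 0.05 with the quasi-likelihood test, where the smallest adjusted p was 0.780 against AI-preg and 0.778 against NB-preg heifers. The median log2 fold change over all genes was -0.15 and -0.05.

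The list of surface receptors of neutrophils and other myeloid cells was made mostly of genes that the study reported as different. Its direction is therefore not independent evidence. Of the 9 genes of this list, 6 were higher in non-pregnant than AI-preg heifers by the nominal rule and 3 were higher than in NB-preg heifers, with median log2 fold changes of 1.61 and 1.48. The list first drawn up held 4 of these genes, of which 2 and 1 were past the rule. FCAR and FCGR3A were the only genes of the list that the study did not report as different. FCAR was past the rule against AI-preg heifers only, and FCGR3A in neither comparison. Both comparisons included VNN2, an enzyme of the leukocyte surface, with log2 fold changes of 1.61 ± 0.57 (SE) and 1.26 ± 0.56. They also included ADGRE3, an adhesion receptor, at 2.29 ± 0.86 and 1.80 ± 0.85, and PTAFR, the receptor for platelet-activating factor, at 1.56 ± 0.62 and 1.40 ± 0.62. C5AR1, the receptor for complement fragment C5a, FCAR, a receptor for IgA, and BST1, an ectoenzyme, were past the rule against AI-preg heifers alone. The difference between the comparisons was not tested. FCGR3A, an Fc receptor for IgG that natural killer cells also carry, had log2 fold changes of -0.05 ± 0.42 and 0.41 ± 0.42. It was between 45.1 and 279 CPM in non-pregnant and between 47.5 and 255 CPM in pregnant heifers. CSF2RA and SELPLG were not past the rule.

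All 7 effector and cytosolic proteins of neutrophils were higher in non-pregnant than AI-preg heifers by the nominal rule, and 4 were higher than in NB-preg heifers, with medians of 2.29 and 1.97. Of these 7, only S100A12 was on the list first drawn up. The others, IL1B among them, were added later from the supplementary tables. S100A12, a calcium-binding protein released by neutrophils, was at 11785, 10637 and 10794 CPM in heifers 94, 107 and 113. The other heifers had 74.8 to 4088 CPM. The direction of this list is not independent evidence either, since nearly all of its genes were reported as different by the study. IL1B, the only gene of the 7 that the study did not report as different, had log2 fold changes of 3.18 ± 1.35 (SE) and 3.28 ± 1.35. IL1B encodes the cytokine interleukin 1 beta. IL1RN, its antagonist, was past the rule in both comparisons at 2.20 ± 0.70 and 1.97 ± 0.70, as was CDA, cytidine deaminase, at 2.92 ± 1.00 and 2.23 ± 0.98. SERPINB1, an inhibitor of granule proteases, ALOX5AP, which serves leukotriene synthesis, and HK3, a hexokinase, were past it against AI-preg heifers.

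The NADPH oxidase did not move as a unit. Besides NCF1, the membrane subunits CYBA (p22phox) and CYBB (gp91phox) and the chaperone CYBC1 could be identified. None of the 3 was past the nominal rule. CYBA was at 17.9, 16.8 and 24.1 CPM in heifers 94, 107 and 113, above all others, which had 0.400 to 12.3 CPM. CYBB was not high in these heifers. It was at 53.4, 173 and 134 CPM there, against 1263 and 522 CPM in heifers 101 and 115 and 168 to 1306 CPM in the 12 pregnant heifers. Heifers 94 and 113 were thus the lowest of all 17 for the catalytic subunit of the complex and among the highest for its activator. The log2 fold change of CYBB was -0.57 ± 0.73 (SE) against AI-preg and -0.22 ± 0.73 against NB-preg heifers, within the spread between heifers. Its sign was negative with TMM factors and DESeq2 size factors too, and turned to 0.49 and 0.83 without heifers 94, 107 and 113. Within each heifer, log2(CPM + 1) of NCF1 minus that of CYBB was 0.07, -0.67 and 0.21 in heifers 94, 107 and 113 and between -8.65 and -2.85 in the other 14.

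Of 7 genes of ITAM signalling, 2 were past the nominal rule in both comparisons, with median log2 fold changes over the list of 1.34 and 0.79. These were TYROBP, the adaptor of TREM1, at 2.19 ± 0.96 (SE) and 2.33 ± 0.97, and FGR, a Src-family kinase, at 1.35 ± 0.58 and 1.43 ± 0.58. Heifers 94, 107 and 113 had 205, 162 and 190 CPM of TYROBP, and the other heifers had 1.89 to 72.1 CPM. FCER1G, the other adaptor of the list, was at 1.44 ± 0.93 and 1.75 ± 0.93 and LYN, a kinase of B cells and myeloid cells, at 0.11 ± 0.38 and -0.28 ± 0.38. Neither passed. Downstream of CSF3R, the phosphatase PTPN6 was at 1.41 ± 0.92 and 1.29 ± 0.92, the kinase PIM1 at 0.32 ± 0.58 and 0.10 ± 0.58, and neither passed. Without heifers 94, 107 and 113, 2 of the 28 list genes were past the nominal rule against AI-preg heifers, in place of 15. Against NB-preg heifers 0 were, in place of 9. The share of all genes past the rule and higher in non-pregnant heifers also fell. It went from 2.94% to 0.420% against AI-preg and from 2.27% to 0.201% against NB-preg heifers. Leaving out these heifers, chosen by their values, kept only 2 in the non-pregnant group. Nothing particular to the list genes is therefore read from these counts.

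**Figure D3:**
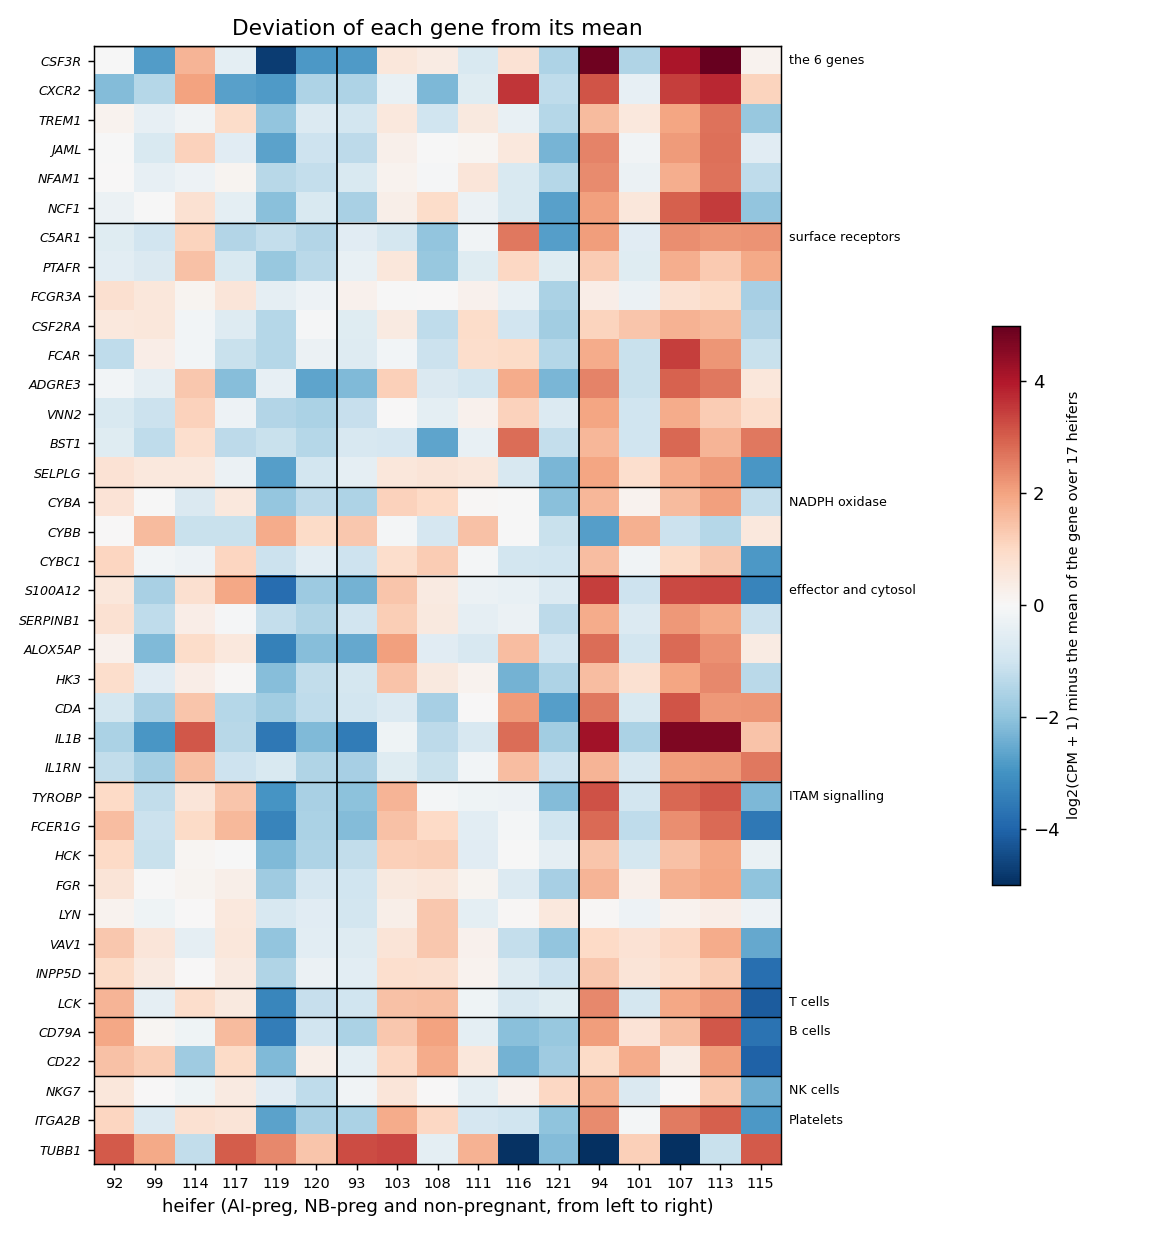
Abundance of each gene in each heifer as log2(CPM + 1) minus the mean of that gene over 17 heifers, with colours limited to -5 and 5. Rows are the 6 genes and the list genes, and columns are the heifers, with lines between the 3 groups; heifers 94, 107 and 113 are high in most rows, with CYBB and TUBB1 low.

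Some markers of other cells were also high in heifers 94, 107 and 113. LCK, IL5RA and ITGA2B had their 3 highest values there, while CD79A, CD22, NKG7 and TUBB1 did not. LCK, a T cell kinase and the only T cell gene of 8 listed that could be identified, was at 401, 288 and 342 CPM there and at 3.32 to 247 CPM in the other heifers. The summed abundance of 2 B cell genes (CD79A and CD22) was 361 to 1112 CPM in these 3 heifers. It was 34.6 to 623 CPM in AI-preg and 40.0 to 766 CPM in NB-preg heifers, and the lowest of all, 11.3 CPM, was in heifer 115. CD22 alone was at 277, 194 and 608 CPM in heifers 94, 107 and 113 and at 527 CPM in non-pregnant heifer 101. NKG7, of natural killer cells, was at 20.4 to 69.6 CPM in these 3 heifers and 7.60 to 41.2 CPM in the pregnant heifers. IL5RA, of eosinophils, was at 21.2 to 36.8 CPM in these 3 and 3.73 to 17.4 CPM in the pregnant heifers. IL5RA was past the nominal rule against NB-preg heifers, with a log2 fold change of 1.79 ± 0.52 (SE), and not against AI-preg heifers (0.96 ± 0.51), and it was among the 11 genes that DESeq2 called against NB-preg heifers. The study also reported IL5RA as different. The 2 platelet genes differed from each other. ITGA2B, the platelet integrin alpha chain, was at 41.4, 49.4 and 64.3 CPM in heifers 94, 107 and 113 and at most 29.3 CPM in the others. The platelet tubulin TUBB1 was at 0.0646, 0.491 and 85.0 CPM in these 3 and at 5.00 to 1860 CPM in the pregnant heifers. None of the T cell, B cell, natural killer or platelet genes was past the nominal rule, no marker of monocytes, basophils or red cells could be identified, and the part of the cell mixture in the abundance of the 6 genes was not tested. The 50 most counted genes took 22.1 to 23.3% of the read pairs in these 3 heifers, 22.2% in heifer 115 and 11.9 to 20.9% in the pregnant heifers.

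The 12 pregnant heifers were used to ask whether the 6 genes vary together when the non-pregnant heifers are left aside. The CPM of AI-preg and NB-preg heifers were also among the values that chose the genes. The tests over these heifers are therefore not independent of that choice. NFAM1 was at 0 to 3.20 CPM in the 12 pregnant heifers, with 0 to 150 read pairs, so its values of r there rest on low counts. Over all 17 heifers, Pearson's r of log2(CPM + 1) was between 0.55 (CXCR2 and TREM1) and 0.94 (CSF3R and JAML) for the 15 pairs. These values include the group difference and are a description. Among the 12 pregnant heifers, the median r was 0.62 and 7 of 15 pairs passed an adjusted p of 0.05 (permutation test with 100000 permutations, two-sided, Benjamini-Hochberg over 15 pairs). The 7 pairs had r of 0.66 or more, as had 14.1% of all pairs of genes, and 17% of all pairs reached the median of 0.62. The number of pairs that passed was 3 without heifer 119, 4 without heifer 121 and 11 without heifer 108. CSF3R and JAML had r = 0.87 (rho = 0.90, adjusted permutation p = 0.0027). JAML and NCF1 had r = 0.85 and TREM1 and NFAM1 had r = 0.84, both with an adjusted permutation p of 0.00395. Without the pair of heifers farthest from the median of the first gene, these 3 values of r were 0.72, 0.65 and 0.80. With Spearman's rho, 2 of 15 pairs passed. Within AI-preg heifers alone, 2 of 15 passed in an exact permutation test, and within NB-preg heifers 0 of 15, where the median r was 0.74 and 0.53.

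The lowest values of r were those of CXCR2. Among the 12 pregnant heifers its r was 0.05 with NFAM1, 0.18 with TREM1 and 0.23 with NCF1, the 3 lowest of the 15 (adjusted permutation p of 0.892, 0.627 and 0.556). With CSF3R and JAML it was 0.57 and 0.62 (adjusted permutation p of 0.0648 and 0.0581), and without heifers 114 and 116 the r with JAML was 0.37. On the scale of log2(CPM + 1), CXCR2 exceeded NFAM1 by 5.74 in heifer 116, 3.82 in heifer 115 and 3.70 in heifer 114, more than the 2.23, 3.10 and 2.52 in heifers 94, 107 and 113. In the other 11 heifers the difference was between -1.40 and 1.62. NFAM1 had 4, 1 and 20 read pairs in heifers 116, 115 and 114, so their differences rest on low counts of NFAM1. With the first principal component, CXCR2 had r = -0.15 among the 12 pregnant heifers (adjusted permutation p = 0.713 over 42 relations). NCF1, NFAM1 and TREM1 had r of 0.75, 0.73 and 0.64 with it (adjusted permutation p of 0.0224, 0.0224 and 0.0477), and 0.59, 0.67 and 0.76 without heifers 108 and 119. The difference between these values of r was not tested. The 42 relations used libraries that chose the 6 genes and genes set against them after a look at their values. Their p are therefore not independent of these choices.

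**Figure D4:**
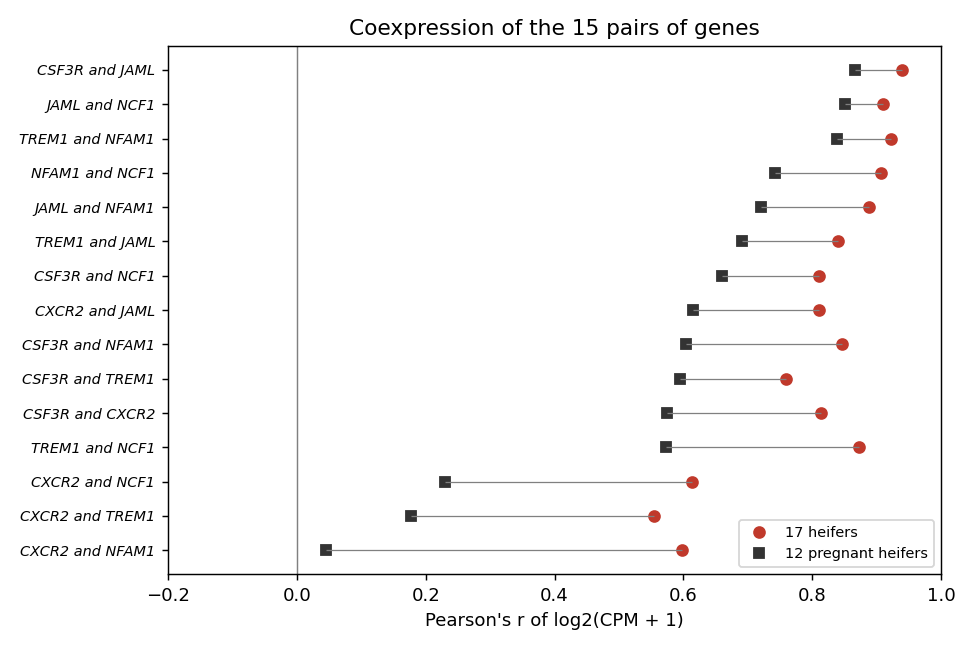
Pearson's r of log2(CPM + 1) for the 15 pairs of the 6 genes, over 17 heifers (circles) and over the 12 pregnant heifers (squares), ordered by the latter. All pairs are higher over 17 heifers, and the 3 lowest squares, at 0.05, 0.18 and 0.23, are those of CXCR2 with NFAM1, TREM1 and NCF1.

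Of the 28 list genes, 6 had r of 0.85 or more with CXCR2 among the 12 pregnant heifers. The share of all genes that reach this r with CXCR2 was not computed, so nothing is read from the count. The r with CXCR2 was 0.90 for BST1, 0.88 for CDA, 0.88 for IL1B, 0.88 for IL1RN and 0.85 for C5AR1 and PTAFR, while r with NFAM1 was 0.29 or less for these 6. All of them but IL1B were reported as different by the study. VNN2 came next, with r of 0.82 with CXCR2 and 0.45 with NFAM1. Without heifers 114 and 116, r with CXCR2 was 0.70 for PTAFR and between 0.27 and 0.47 for the other 5. IL1B was at 269 CPM in heifer 114 and 215 CPM in heifer 116, and at 26.3 CPM or less in the other 10 pregnant heifers. C5AR1 was at 27.5 and 81.6 CPM there and at 10.8 CPM or less in the other pregnant heifers. Heifer 115 had 82.9 CPM of IL1B and 62.7 CPM of C5AR1. The r of CXCR2 and IL1B (adjusted permutation p = 0.0109 over 42 relations) was 0.47 without heifers 114 and 116, and it rests on them. NFAM1 instead had its largest r among the 28 list genes with FGR (0.90), SELPLG (0.86) and CYBA (0.84). CYBA also had r of 0.79 with NCF1 (adjusted permutation p = 0.0109). The T cell kinase LCK, outside the 28, had r of 0.82 with CSF3R, 0.73 with NCF1 and 0.72 with NFAM1 and JAML. With TREM1 it was 0.65, and with CXCR2 0.09. The adjusted permutation p was 0.0109 for CSF3R, 0.0224 for NCF1, NFAM1 and JAML, 0.0437 for TREM1 and 0.825 for CXCR2. LCK, IL1B, CYBA and CYBB were set against the 6 genes after a look at their values. Their p are therefore not independent of that choice. Of all pairs of genes, 14.1% had r of 0.66 or more among the 12 pregnant heifers. The B cell genes CD79A and CD22 had r of 0.76 and 0.65 with NFAM1, and NKG7 had 0.17. CSF3R had r = -0.74 with CYBB among the pregnant heifers (adjusted permutation p = 0.0224), and NCF1 had r = -0.26 with it (adjusted permutation p = 0.526).

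**Figure D5:**
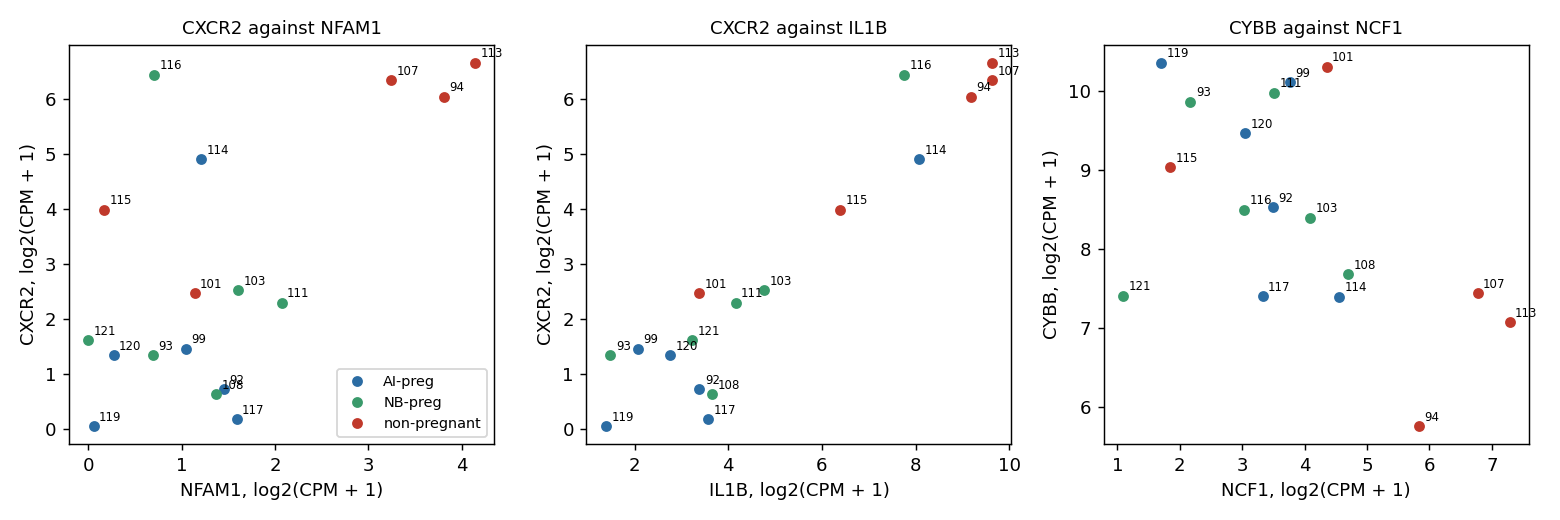
CXCR2 against NFAM1 (left), CXCR2 against IL1B (middle) and CYBB against NCF1 (right), each as log2(CPM + 1), with a point for each of 17 heifers, labelled by number and coloured by group. Heifers 114, 115 and 116 are high for CXCR2 at low NFAM1 but lie along the line of points with IL1B, and heifers 94, 107 and 113 have the highest NCF1 with low CYBB.

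Among genes with a symbol, those whose abundance was most like that of each of the 6 over 17 heifers were found by Pearson's r, as a description. For CSF3R they were NFE2, a transcription factor of the megakaryocyte and red cell lineages (r = 0.97), ARAP3, MARCKSL1, GSN and SDS (0.94 or more). For JAML they were PLEKHO1 (0.95), NFE2, PMF1, MS4A8 and DEDD2 (0.92 or more). For NCF1 they were CYTH4 (0.97), LGALS9, PLEKHO1, NELFE and UQCRC1 (0.95 or more). For TREM1 they were PFKFB4 (0.95), LGALS1, TNFRSF1A, FKBP11 and FXYD5 (0.92 or more), and for NFAM1 LHPP (0.94), DEDD2, SERINC2, PFKFB4 and RHOG (0.93 or more). CXCR2 again had a list of its own, with MCF2L2 (0.96), IFIT3, VAT1L, WLS and TIAM2 (0.95 to 0.96). NFE2 and PLEKHO1 each stood in 2 of these lists, as did PFKFB4 and DEDD2. CYTH4 and NCF1 kept r = 0.97 among the 12 pregnant heifers, and GSN and CSF3R r = 0.96. Only 2221 of the 10942 genes kept had a symbol, taken from the study's supplementary tables. Most of the genes in these lists were reported as different by the study. Genes without a symbol could have larger r. With TREM1, 14 genes of any name had a larger r than FXYD5.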

How the data were processed

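The authors deposited whole-number counts of read pairs per gene for PWBC and of reads per gene for plasma small RNA, without normalization or a filter. Per the labels and methods, reads were aligned to ARS-UCD1.2 with HISAT2 2.1.0 and counted with featureCounts 1.6.0. Reads with several alignments or many mismatches and duplicates had been removed, and 1 further non-pregnant library of low yield was left out.

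Genes at 2 CPM or more in 5 or more PWBC libraries were kept. CPM was taken over the 10942 genes kept, of any type, without scaling factors; the files do not say which genes code for proteins. Levels are not compared between genes because no lengths were at hand. Differences of a pair of genes within a heifer are compared only between heifers. Counts were fitted with edgeR 4.0.16 in R 4.3.3 (quasi-likelihood test, robust, 3 groups in 1 fit, Benjamini-Hochberg adjustment). The SE is the log2 fold change over the square root of its F statistic. The nominal rule used the likelihood ratio test of edgeR and the Wald test of DESeq2 1.42.0 in fits of 2 groups. The tests were tested on simulated data. Principal components, correlations and permutation tests used Python 3.11.15, numpy 2.4.6 and pandas 2.3.3, with log2(CPM + 1).

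Symbols came from the supplementary tables, which name 2221 identifiers past the filter. The genes and lists were chosen with earlier results of these data known. List genes named are the 3 most abundant of each neutrophil list and every gene past the nominal rule, with the 5 genes of largest r for each of the 6. The choice of LCK, CD79A, CD22, NKG7, TUBB1, ITGA2B, CYBC1, CSF2RA, SELPLG, IL5RA and the genes set against the 6 in correlations followed a look at their values. Alternatives were TMM and DESeq2 size factors, the test, the filter, the pseudocount and each heifer left out. The fits without heifers 94, 107 and 113 and the correlations over the 12 pregnant heifers were added after the values were seen. Sequences were not analysed here.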

Additional observations from a re-analysis of the deposited data

Results flagged for a closer look

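Among 18 sets of values (6 genes in 3 groups of 5 or 6 heifers), 2 held a heifer far from the rest of its group on the scale of log2(CPM + 1). Both were for CXCR2. In AI-preg heifers, the gap between heifer 114 (29.0 CPM) and the next heifer was 0.710 of the range of the group. In NB-preg heifers, the gap between heifer 116 (85.9 CPM) and the next was 0.675 of the range. Chance alone marks about 1 in 20 such sets.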

How the results depend on the processing

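No paired analysis was possible because no comparison was made between the PWBC and plasma libraries that share heifer numbers, and the groups of heifers share none. The planned comparisons of plasma miRNAs (miR-223, miR-142, miR-150, miR-451, miR-486 and miR-144) were not run, since no identifier for them was at hand.

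With the quasi-likelihood test of edgeR, 0 genes passed an adjusted p of 0.05 in each comparison under each scaling, filter and heifer left out, while the Wald test of DESeq2 called 5 genes against AI-preg and 11 against NB-preg heifers. The number past the nominal rule and higher in non-pregnant heifers was 322 against AI-preg heifers. It was 214, 209 and 163 without heifers 99, 119 and 120, 204, 156 and 136 without heifers 94, 107 and 113, and 945 without heifer 115. Against NB-preg heifers it was 248, and 376 with TMM factors. It was 138, 395 and 134 without heifers 93, 108 and 121, 138, 113 and 99 without heifers 94, 107 and 113, and 837 without heifer 115. With heifers 94, 107 and 113 all left out, 46 and 22 genes were past it. The cause of these shifts was not tested. Of the 6 genes, TREM1 was no longer past it against AI-preg heifers without heifer 99, 119, 120, 107 or 113, and CXCR2 without heifer 94. Against NB-preg heifers NFAM1 was lost without heifer 93, 108, 116, 94, 107 or 113, and TREM1 without heifer 113, while CXCR2 was past it without heifer 116. Of the 28 list genes, 15 against AI-preg heifers became 7 to 19 with 1 heifer left out, and 9 against NB-preg heifers became 4 to 13 (14 with TMM factors). Over 17 heifers, whose group difference chose the genes, the count of pairs of the 6 genes is no test. Over the 12 pregnant heifers 7 of 15 pairs passed, 10 with TMM factors or a pseudocount of 0.5, and 3 (without heifer 119) to 11 (without heifer 108) with 1 heifer left out. With DESeq2 size factors the median log2 fold change of all genes moved from -0.15 to 0.16 and from -0.05 to 0.13, and the 6 genes stayed higher in non-pregnant heifers under every scaling, test and filter tried. Leaving out 1 heifer moved log2 fold changes of the 6 against AI-preg to between 1.32 and 5.98 and against NB-preg heifers to between 1.34 and 4.48. Libraries with under 10 read pairs of NFAM1 or CXCR2 limit what can be said of single heifers.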

Other observations

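Plasma of the same heifers held almost no reads of the 6 genes. Over 17 small RNA libraries of 1073910 to 17024777 counted reads, the 6 genes had 2 to 22 reads each in all. The most in 1 library were 10 reads of NCF1 in AI-preg heifer 117 and 5 of CSF3R in non-pregnant heifer 94. CSF3R had a read in 9 of 17 plasma libraries, JAML in 7, NCF1 in 5, CXCR2 in 4, NFAM1 in 3 and TREM1 in 1.

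Library depth was set against each of the 6 genes among the 12 pregnant heifers. Log2 of the read pairs counted had r = -0.66 with CXCR2 (adjusted permutation p = 0.037 over 42 relations), and -0.44 without heifers 99 and 116. For the other 5 genes r was between -0.54 and 0.16, with adjusted permutation p of 0.113 or more, and the difference between the genes was not tested. Over all 17 heifers, as a description, r was -0.56 for CXCR2 and between -0.39 and -0.06 for the others. The part of depth in the abundance of CXCR2 was not tested.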
